A study of Mus musculus with 3 samples.

Results

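The genes described are 9 of the 27998 genes counted: *Aldh1a1*, *Aldh1a2*, *Aldh1a3*, *Crabp1*, *Crabp2*, *Cyp26b1*, *Dhrs3*, *Rarb* and *Stra6*, which handle vitamin A, make, carry, sense or degrade retinoic acid, or are induced by it. They were chosen by name for these roles, and their UMIs (unique molecular identifiers, each standing for 1 captured RNA molecule) were followed across cell classes, between fibroblast groups and across genotypes. The cells came from C57BL/6 mouse embryonic thymus at embryonic day 13 to 13.5, with 1 droplet library for each of 3 genotypes. These were a wild-type control (Tbx1+/+), Tbx1 neo2/neo2, homozygous for an allele built to lower *Tbx1* expression, and Foxn11089/1089, homozygous for a short deletion in *Foxn1*. Both mutant lines are models of a small thymus, and the comparison asks how the cells of the lobes differ between them and the control.

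Retinoic acid is made from vitamin A in a chain of steps. Cells take up retinol through the membrane receptor Stra6, oxidise it to retinaldehyde, and the Aldh1a enzymes turn retinaldehyde into retinoic acid, while Dhrs3 drives the reverse step from retinaldehyde back to retinol. In the cell, retinoic acid is carried by Crabp1 and Crabp2, binds nuclear receptors such as Rarb, and is broken down by Cyp26b1. In the pharyngeal region of the embryo, retinoic acid patterns the pouches from which thymus and parathyroid arise, and mesenchyme around developing organs is a known source of it.

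The control library held 6410 barcodes and 82936619 UMIs, the Tbx1 neo2/neo2-labelled library 5759 and 137498422, and the Foxn11089/1089 library 12447 and 204655055. Barcodes passed with 200 genes or more and a mitochondrial share below 20%, which gave 5932, 5516 and 11772 cells, or 23220 in all. The median depth of a kept cell was 13410, 20733 and 14652 UMIs, and the median mitochondrial share was 2.59%, 5.80% and 5.03%. The control and the Tbx1 neo2/neo2-labelled library shared 17 barcodes, the control and Foxn11089/1089 libraries 18, and the mutant libraries 28.

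The counts did not show the lower *Tbx1* that a Tbx1 neo2/neo2 label implies, so the label is used below as a name only. In *Pdgfra*-positive cells *Tbx1* stood at 5.45 CPM (counts per 1000000 UMIs of the class) in control, 5.46 CPM in that library and 3.57 CPM in Foxn11089/1089. Among *Epcam*-positive cells it was 0.799, 4.84 and 5.85 CPM, from 26, 172 and 489 UMIs, and in *Cdh5*-positive cells 25.0, 28.6 and 31.2 CPM. *Foxn1* in *Epcam*-positive cells was 85.9, 107 and 156 CPM, so the targeted gene of the Foxn11089/1089 library was likewise not lower. *Psmb11* and *Prss16*, which depend on *Foxn1*, were at 231, 121 and 11.6 CPM and at 295, 403 and 5.27 CPM in *Epcam*-positive cells, lowest in the library labelled for *Foxn1*. Counts from the 3′ ends of transcripts do not read the altered sequence of either allele. By flow cytometry the authors found a higher percentage of Pdgfrb-positive cells with low or no Pdgfra in Tbx1 neo2/neo2 thymuses. They describe such cells as pericytes. RNA of pericyte and smooth muscle markers in *Pdgfra*-positive cells was highest in the library so labelled, at 497, 1144 and 505 CPM. The *Pdgfra* gate, defined below, leaves out cells without *Pdgfra* UMIs, so it is not the set counted by flow cytometry. In cells that met no gate the markers summed to 220, 1418 and 355 CPM. The authors state that *Tbx1* is not expressed in the embryonic thymus, so its level here cannot test the genotype. The barcode numbers given above equal the cell totals that the paper lists for the same genotypes. Whether the labels are right was not tested further.

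A cell was assigned to a class when it held at least 2 UMIs of 1 marker and 0 of the other 3: *Pdgfra* for mesenchyme, *Epcam* for epithelium, *Cdh5* for endothelium and *Ptprc* for hematopoietic cells. In control, Tbx1 neo2/neo2-labelled and Foxn11089/1089 libraries, the order used throughout, *Pdgfra*-positive cells numbered 652, 1217 and 2065, and *Epcam*-positive cells 1921, 708 and 3692. *Cdh5*-positive cells numbered 47, 80 and 70, and *Ptprc*-positive cells 542, 172 and 254. The median depths were 9453, 25630 and 14382 UMIs in *Pdgfra*-positive cells and 16468, 44473 and 20212 in *Epcam*-positive cells. Another 2469, 3009 and 3948 cells met no gate. No doublet caller was run. The gates leave out cells with UMIs of more than 1 of the 4 markers, which were 7.69%, 9.83% and 8.94% of kept cells, and doublets within a class or with an unseen second marker remain.

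Free RNA puts stray UMIs into every droplet, so *Alas2*-positive red blood cells, which should lack the 9 genes, served as background. They numbered 301, 330 and 1743, with median depths of 9053, 18627 and 12540 UMIs. Intervals given below are at the 95% level and, like limits at a count of 0, cover counting error only. With 1 library per genotype there is no replicate of a genotype, and no test between genotypes was run.

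The 9 genes are protein coding and lie on 7 chromosomes of GRCm38. On chromosome 9 are *Crabp1* (ENSMUSG00000032291, chr9:54764748-54773110), *Stra6* (ENSMUSG00000032327, chr9:58063788-58153996) and *Aldh1a2* (ENSMUSG00000013584, chr9:71215789-71296243), all on the plus strand. *Crabp2* (ENSMUSG00000004885, chr3:87948666-87953376), *Dhrs3* (ENSMUSG00000066026, chr4:144892827-144928209) and *Aldh1a1* (ENSMUSG00000053279, chr19:20492715-20643465) are also on the plus strand. *Cyp26b1* (ENSMUSG00000063415, chr6:84571414-84593908), *Aldh1a3* (ENSMUSG00000015134, chr7:66390890-66427517) and *Rarb* (ENSMUSG00000017491, chr14:16430839-16819156) are on the minus strand. *Aldh1a1* lies beside the near-copy *Aldh1a7* (chr19:20692953-20727562, minus strand), so its counts are uncertain.

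The synthesis enzyme *Aldh1a2* marked the mesenchyme. Its level in *Pdgfra*-positive cells was 79.7 (73.0 to 86.8), 68.7 (65.9 to 71.6) and 123 (120 to 127) CPM. Epithelial, *Epcam*-positive cells held 0.799, 1.07 and 4.35 CPM, and in *Cdh5*- and *Ptprc*-positive cells it lay between 0 and 2.57 CPM. *Alas2*-positive cells held 0, 0.620 and 1.76 CPM, and the epithelial level of the Foxn11089/1089 library lay above this background, which was itself highest there. At least 1 *Aldh1a2* UMI was found in 34.2%, 37.9% and 49.2% of *Pdgfra*-positive cells and in 0%, 1.21% and 1.61% of *Alas2*-positive cells.

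The other synthesis enzymes were epithelial in most libraries. *Aldh1a3* stood at 8.36 (7.39 to 9.41), 2.31 (1.84 to 2.86) and 25.6 (24.5 to 26.7) CPM in *Epcam*-positive cells, against 1.51, 4.62 and 1.85 CPM in *Pdgfra*-positive cells. The Tbx1 neo2/neo2-labelled library was thus the one in which its mesenchymal level lay above its epithelial level. *Aldh1a1* gave 6, 87 and 45 UMIs in *Epcam*-positive cells, or 0.184, 2.45 and 0.539 CPM, and no more than 3 UMIs in a library in *Pdgfra*-positive cells. *Aldh1a7* had 0.246, 2.31 and 0.802 CPM in the same epithelial cells, the same order of libraries, and reads cannot be shared out between the pair from these counts.

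*Stra6*, the retinol uptake receptor, was low in every class. It measured 2.88 (1.73 to 4.49), 7.43 (6.53 to 8.41) and 11.3 (10.2 to 12.5) CPM in *Pdgfra*-positive cells and 1.78, 3.49 and 3.38 CPM in *Epcam*-positive cells. *Alas2*-positive cells held 0, 0.930 and 0.215 CPM. *Dhrs3*, which opposes synthesis, stood at 24.7, 26.5 and 16.3 CPM in *Pdgfra*-positive, 33.3, 19.1 and 70.6 CPM in *Epcam*-positive and 21.1, 33.8 and 19.98 CPM in *Cdh5*-positive cells. In *Ptprc*-positive cells it was 3.09, 17.2 and 16.4 CPM, against 0, 1.09 and 1.33 CPM in *Alas2*-positive cells.

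The paired binding proteins split by class. *Crabp1* was mesenchymal, at 201 (190 to 212), 299 (293 to 305) and 206 (201 to 211) CPM in *Pdgfra*-positive cells and 1.78, 4.22 and 6.73 CPM in *Epcam*-positive cells, with 1.26, 2.48 and 3.99 CPM in *Alas2*-positive cells. *Crabp2* was highest in epithelium, at 338 (332 to 345), 304 (299 to 310) and 409 (405 to 414) CPM, and stood at 56.4, 109 and 75.1 CPM in *Pdgfra*-positive cells. A *Crabp2* UMI was found in 93.4%, 88.1% and 93.9% of *Epcam*-positive cells and in 3.99%, 5.15% and 7.29% of *Alas2*-positive cells.

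*Rarb*, a receptor gene that retinoic acid itself induces, stood at 27.4 (23.6 to 31.7), 35.7 (33.7 to 37.8) and 55.9 (53.4 to 58.6) CPM in *Pdgfra*-positive cells. Its level in *Epcam*-positive cells was 1.01 (0.698 to 1.42), 5.32 (4.59 to 6.13) and 10.4 (9.68 to 11.1) CPM, and in *Alas2*-positive cells 0, 0.310 and 0.644 CPM. *Cyp26b1*, which degrades retinoic acid, was at 4.54, 6.50 and 6.68 CPM in *Pdgfra*-positive cells and 8.11, 13.8 and 2.44 CPM in *Epcam*-positive cells. In *Cdh5*-positive cells it gave 0, 73 and 9 UMIs, or 0, 31.6 and 3.60 CPM. The control count of 0 among 47 cells allows a share of up to 6.38% of cells with a UMI.

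**Figure D1:**
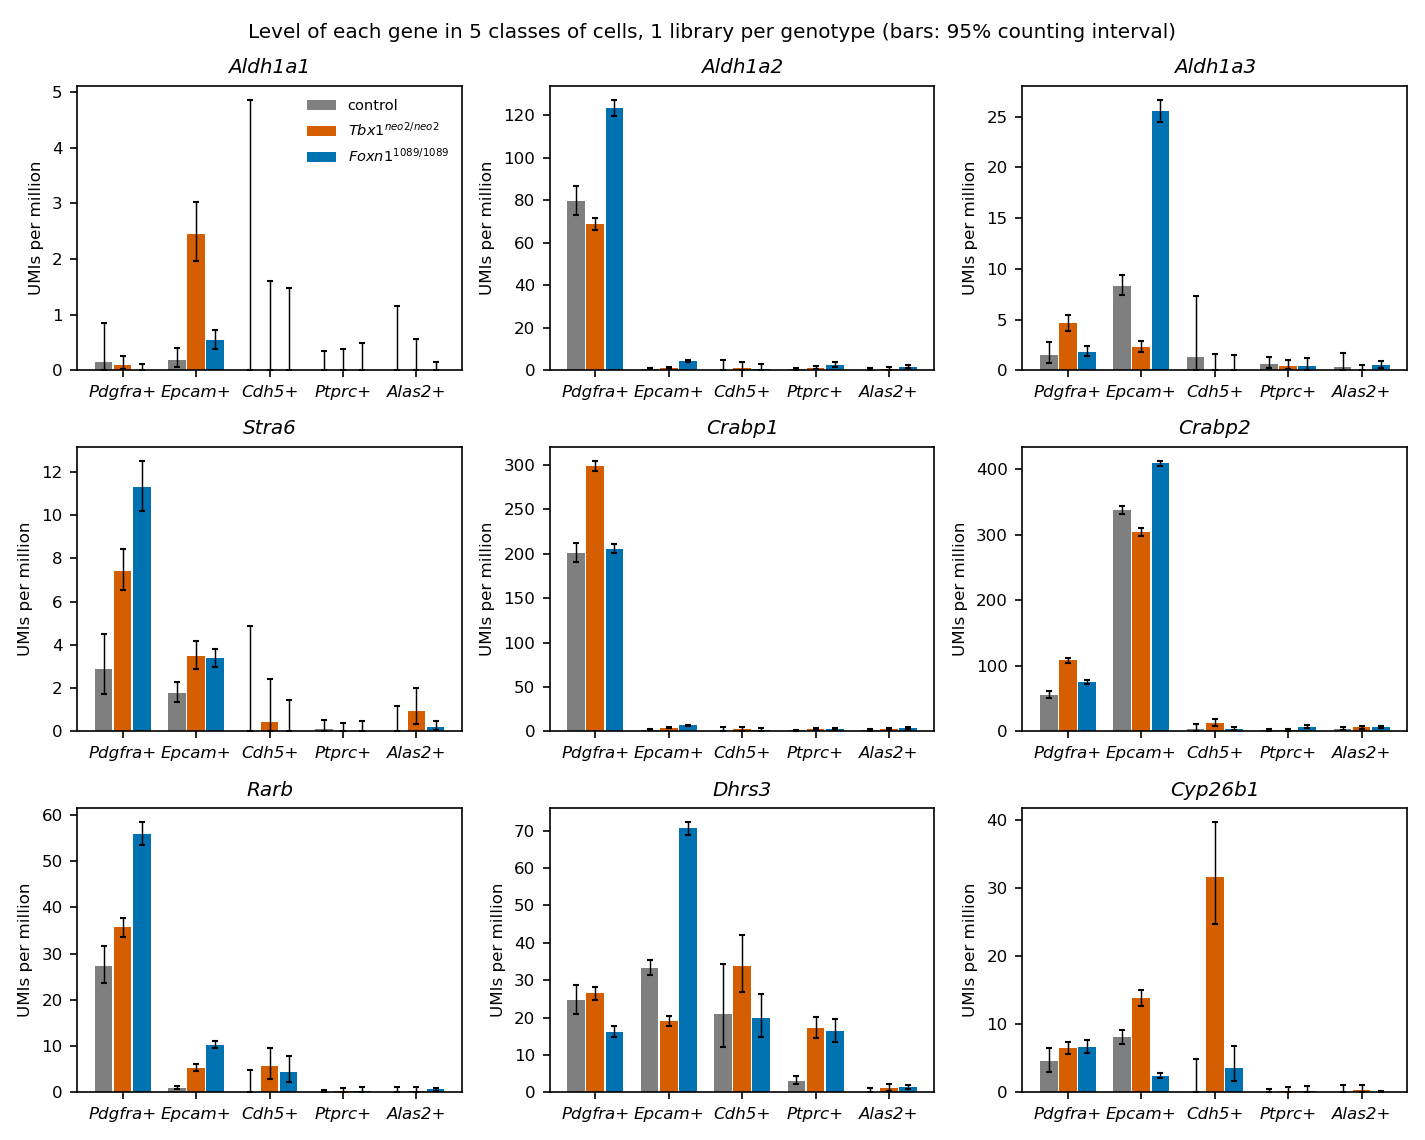
Level of each of the 9 genes in CPM, by cell class (*Pdgfra*-, *Epcam*-, *Cdh5*-, *Ptprc*- and *Alas2*-positive) and library, with 95% counting intervals. *Aldh1a2* and *Crabp1* stand highest in *Pdgfra*-positive cells of all 3 libraries, and *Crabp2* in *Epcam*-positive cells.

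Cells that met no gate held much of the signal, so the classes do not account for every UMI. Of the *Aldh1a2* UMIs of kept cells, 62.1%, 39.7% and 45.1% were in such cells, where its level was 32.6, 31.5 and 67.9 CPM. *Pdgfra*-positive cells held 49.8%, 74.1% and 56.3% of the *Crabp1* UMIs, and *Epcam*-positive cells 84.6%, 57.3% and 77.4% of the *Crabp2* UMIs.

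Classes were then compared over the 3 libraries, with UMIs summed per class and library and tested by edgeR quasi-likelihood with library as a term. P-values were adjusted by Benjamini-Hochberg over 14181 genes. *Pdgfra*-positive cells had 3257 genes higher and 3198 lower than *Epcam*-positive cells. Of the 9 genes 8 could be tested, *Aldh1a1* having too few UMIs, and 4 were higher, against 23.0% of all genes tested, and 1 was lower, against 22.6%. *Crabp1* was higher by a log2 fold change of 5.90 ± 0.325 (SE; adjusted p = 1.3e-06, edgeR) and *Aldh1a2* by 5.70 ± 0.348 (adjusted p = 2.4e-06, edgeR), each in 3 of 3 libraries. *Rarb* was higher by 3.18 ± 0.398 on the log2 scale (adjusted p = 0.000164, edgeR; 3 of 3 libraries).

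*Crabp2* was the member lower in *Pdgfra*-positive than in *Epcam*-positive cells, with a log2 fold change of -2.20 ± 0.388 (adjusted p = 0.00133, edgeR) and the same direction in 3 of 3 libraries. *Stra6* passed narrowly, at 1.21 ± 0.420 (adjusted p = 0.0390, edgeR; 3 of 3 libraries). Its call was lost when any library was left out, with adjusted p = 0.0936 without control, 0.130 without the Tbx1 neo2/neo2-labelled library and 0.149 without Foxn11089/1089 (range over all alternatives 0.0135 to 0.149). The remaining 3 did not pass: *Dhrs3* (log2 fold change -0.84, adjusted p = 0.234) and *Cyp26b1* (-0.14, adjusted p = 0.884) were higher in *Pdgfra*-positive cells in 1 of 3 libraries each. *Aldh1a3* (-1.82, adjusted p = 0.117, edgeR; *Pdgfra*-positive cells higher in 1 of 3 libraries) reached -3.33 with an adjusted p of 0.00453 without the Tbx1 neo2/neo2-labelled library (range over its alternatives 0.00453 to 0.708).

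Against *Cdh5*-positive cells 5 of the 8 tested genes were higher in mesenchyme (20.3% of all genes tested) and 0 were lower (16.6%) by edgeR. *Crabp1* led with a log2 fold change of 7.38 ± 0.459 (adjusted p = 3.3e-06), followed by *Aldh1a2* at 6.90, *Stra6* at 5.37, *Rarb* at 3.58 and *Crabp2* at 3.47, each higher in 3 of 3 libraries. The fold changes of *Aldh1a2*, *Stra6*, *Crabp1* and *Rarb* rest on 0 UMIs in control *Cdh5*-positive cells and depend on the prior count. *Stra6* had 1 UMI there over all 3 libraries, and its log2 fold change ranged from 3.37 to 10.41 over the alternatives. *Dhrs3* gave -0.13 ± 0.605 (adjusted p = 0.898), so no difference was detectable between these classes.

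Against *Ptprc*-positive cells 6 of the 8 were higher (34.0% of all genes tested) and 0 lower (31.8%) by edgeR. *Rarb* had a log2 fold change of 7.15 ± 0.599 (adjusted p = 5.5e-06), *Stra6* 7.10, *Crabp1* 6.65, *Aldh1a2* 6.01, *Cyp26b1* 5.06 and *Crabp2* 4.23, each higher in 3 of 3 libraries. *Ptprc*-positive cells held 1, 0 and 0 UMIs of *Stra6*, 1, 2 and 2 of *Cyp26b1* and 1, 3 and 3 of *Rarb*, so their fold changes depend on the prior count (5.50 to 10.84 over the alternatives for *Stra6*). *Dhrs3* (0.83, adjusted p = 0.218, higher in 2 of 3 libraries) and *Aldh1a3* (2.30, adjusted p = 0.0691, higher in 3 of 3 libraries) did not pass.

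A list of 44 other genes of the pathway, all found in the files, was compared in the same way. Of the 36 tested against *Epcam*-positive cells by edgeR, 20 were higher (against 23.0% of all genes tested) and 3 lower (against 22.6%) in *Pdgfra*-positive cells, with a median log2 fold change of 0.76 against -0.01 over all genes tested. Among genes known to respond to retinoic acid 13 of 15 were higher, each in 3 of 3 libraries. They included *Hoxa5* (log2 fold change 5.23, adjusted p = 4.4e-05), *Nr2f2* (3.14), *Nr2f1* (3.01) and *Hoxb4* (2.96). *Hoxa5* and its neighbours are patterning genes, and *Nr2f1* and *Nr2f2* encode nuclear receptors.

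*Rarres2*, a gene induced by retinoids, was higher in *Pdgfra*-positive than in *Epcam*-positive cells by a log2 fold change of 6.94 (adjusted p = 1.4e-06, edgeR; 3 of 3), and the receptors *Rarg* and *Rara* by 1.47 and 0.71. The 3 lower genes were *Plaat3* (-3.73), *Fabp5* (-2.04), a carrier of fatty acids and retinoic acid, and the alcohol dehydrogenase *Adh5* (-0.65). Of the same 36 genes, 13 were higher (against 20.3% of all genes) and 4 lower (against 16.6%) against *Cdh5*-positive cells, where 6 of the 15 responders were higher and 3, *Tgm2*, *Rarres1* and *Plaat3*, lower. Against *Ptprc*-positive cells 23 were higher (against 34.0%) and 5 lower (against 31.8%).

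Genotypes were compared by the ratio of CPM to the control within a class, called where it was at least 2-fold with at least 30 UMIs over the 2 libraries. CPM ratios carry a shift: the median gene lay at a log2 ratio of 0.38 in *Pdgfra*-positive and 0.40 in *Epcam*-positive cells of the Tbx1 neo2/neo2-labelled library, and at 0.17 and 0.25 in Foxn11089/1089. The log2 ratios of called members are therefore also given relative to the median gene. Both mutant libraries share the 1 control.

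In *Pdgfra*-positive cells of the Tbx1 neo2/neo2-labelled library, *Aldh1a3* and *Stra6* were higher than in control. These were 2 of the 8 genes with enough UMIs, against 17.5% of all such genes, and 0 were lower, against 3.52%. *Aldh1a3* was 3.05-fold higher (1.62 to 6.49) and *Stra6* 2.58-fold (1.62 to 4.36), or 1.23 and 0.99 on the log2 scale above the median gene. *Crabp2* reached 1.93-fold (1.73 to 2.15) and *Crabp1* 1.49-fold (1.40 to 1.57). *Rarb*, at 1.30-fold, lay at the median gene (0.01 above it on the log2 scale). *Aldh1a2* was 0.862-fold (0.784 to 0.95) the control, -0.59 on the log2 scale relative to the median gene. Its log2 ratio kept its sign in 9 of 10 alternatives, from -0.67 with marker lists to 0.07 when each cell was thinned to 2000 UMIs.

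In *Pdgfra*-positive cells of the Foxn11089/1089 library, *Stra6* was 3.93-fold (2.48 to 6.60) and *Rarb* 2.04-fold (1.75 to 2.39) above control. These were 2 of 8 genes, against 6.25% of all genes, with 0 lower, against 4.14%. Relative to the median gene they lay 1.80 and 0.86 higher on the log2 scale, and *Rarb* was past 2-fold in 5 of 10 alternatives. *Aldh1a2* was 1.55-fold (1.41 to 1.70) and *Dhrs3* 0.660-fold (0.552 to 0.791) the control. *Crabp1*, at 1.02-fold (0.964 to 1.09), was within counting error of it. Markers of other cells differed in this class too. The 5 hemoglobin-related genes summed to 2784 CPM in control and 14177 CPM in Foxn11089/1089, and 3 parathyroid markers to 6.51 and 72.6 CPM. Their part in these ratios was not tested.

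In *Epcam*-positive cells of the Tbx1 neo2/neo2-labelled library, 3 of 9 genes were higher, against 16.6% of all genes, and 1 was lower, against 4.42%. *Rarb* was 5.24-fold (3.61 to 7.84) and *Crabp1* 2.37-fold (1.74 to 3.26) higher, 1.99 and 0.84 on the log2 scale above the median gene. *Crabp1* was past 2-fold in 7 of 9 alternatives, with a lowest log2 ratio of 0.785 at a gate of 3 UMIs. The uncertain *Aldh1a1* was 13.3-fold higher (5.86 to 37.2), 3.33 above the median gene. *Aldh1a3* was the lower gene, at 0.276-fold (0.213 to 0.355), or -2.26 relative to the median gene, 10 of 10 alternatives keeping it past 2-fold. *Dhrs3* was at 0.573-fold (0.520 to 0.632) and not called, though past 2-fold relative to the median gene (-1.21), and *Cyp26b1* was at 1.70-fold (1.46 to 1.99).

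In *Epcam*-positive cells of the Foxn11089/1089 library 6 of 9 genes were higher, against 16.1% of all genes, and 1 was lower, against 8.07%. *Rarb* was 10.2-fold (7.22 to 14.9), *Aldh1a2* 5.44-fold (3.65 to 8.44), *Crabp1* 3.77-fold (2.88 to 5.04), *Aldh1a3* 3.06-fold (2.70 to 3.48), *Aldh1a1* 2.92-fold (1.24 to 8.38) and *Dhrs3* 2.12-fold (1.99 to 2.27) above control. *Cyp26b1* was the lower gene, at 0.301-fold (0.250 to 0.363). The median log2 ratio of the 9 genes was 1.55, against 0.25 over all genes. Relative to the median gene, *Rarb* lay at 3.10 on the log2 scale, *Aldh1a2* at 2.19, *Crabp1* at 1.66, *Aldh1a3* at 1.36, *Aldh1a1* at 1.29 and *Cyp26b1* at -1.99. *Dhrs3* lay at 0.83, under 2-fold, and fell below 2-fold with median-of-ratios size factors (log2 ratio 0.84).

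**Figure D2:**
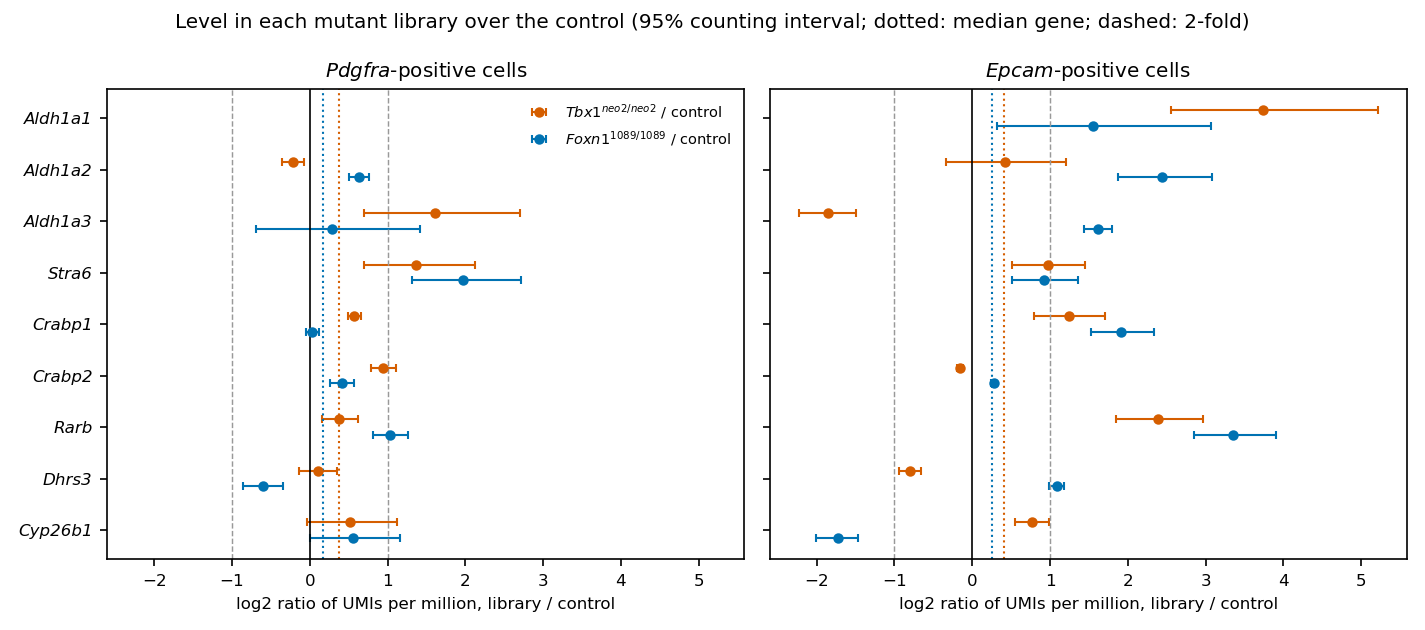
Log2 ratio of CPM over control for each gene in *Pdgfra*-positive and *Epcam*-positive cells of both mutant libraries, with 95% counting intervals and the median gene of each comparison. *Aldh1a3* lies on opposite sides of the control in the 2 classes of the Tbx1 neo2/neo2-labelled library, and *Rarb* is highest in *Epcam*-positive cells of Foxn11089/1089.

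The mutant libraries were also compared with each other. In *Epcam*-positive cells *Aldh1a3* in the Tbx1 neo2/neo2-labelled library was 0.0902-fold (0.0715 to 0.113) and *Dhrs3* 0.270-fold (0.249 to 0.293) the level of Foxn11089/1089, and *Aldh1a2* 0.246-fold (0.171 to 0.344). *Cyp26b1* was 5.66-fold (4.80 to 6.69) higher, as was the uncertain *Aldh1a1*, at 4.54-fold (3.14 to 6.67).

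The epithelial levels of *Aldh1a2*, *Crabp1* and *Rarb* were set beside those of other mesenchymal genes. The level in *Epcam*-positive cells as a percentage of that in *Pdgfra*-positive cells was 1.0%, 1.56% and 3.52% for *Aldh1a2* and 0.886%, 1.41% and 3.27% for *Crabp1*. For 4 other mesenchymal genes, *Prrx1*, *Pdgfrb*, *Twist1* and *Twist2*, it ranged from 0.836% to 10.5%, from 0.515% to 6.63% and from 1.65% to 4.0%. *Aldh1a2* and *Crabp1* lay inside these ranges in all 3 libraries. In *Alas2*-positive cells the median of the 4 genes was lower, at 0.289%, 0.769% and 1.66%. From control to Foxn11089/1089 the median of the 4 genes in *Epcam*-positive cells went from 2.83% to 1.98%, with members going both ways. *Prrx1* went from 0.836% to 1.69% and *Pdgfrb* from 1.54% to 1.65%, while *Twist1* went from 4.11% to 4.0% and *Twist2* from 10.5% to 2.28%. The part of carry-over in the epithelial differences of *Aldh1a2* and *Crabp1* was not tested. *Rarb* was at 3.70%, 14.9% and 18.5%, inside the range in control and above it in both mutant libraries. Mesothelial markers also rose in *Epcam*-positive cells of Foxn11089/1089: *Wt1* was at 0.154, 0.0281 and 1.245 CPM, *Upk3b* at 0.123, 0.0563 and 1.05 CPM and *Msln* at 0.246, 0.0281 and 1.38 CPM, and 3, 0 and 36 cells held 3 of the 6 markers listed. The part of such cells was not tested.

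**Figure D3:**
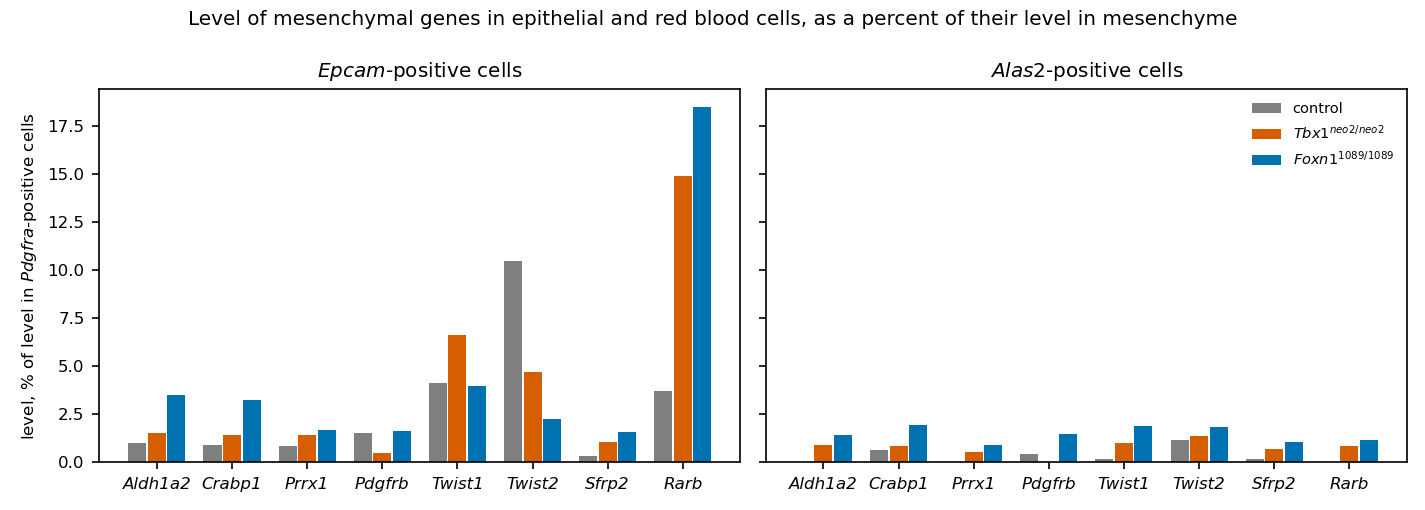
Level in *Epcam*-positive and *Alas2*-positive cells as a percentage of the level in *Pdgfra*-positive cells of the same library, for *Aldh1a2*, *Crabp1* and *Rarb* and for mesenchymal genes. In *Epcam*-positive cells *Rarb* reaches 14.9% and 18.5% in the mutant libraries, where *Aldh1a2* is at 1.56% and 3.52%.

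Shares of cells read depth as well as level. *Rarb* UMIs were found in 1.72%, 10.03% and 18.3% of *Epcam*-positive cells, against 0%, 0.303% and 0.688% of *Alas2*-positive cells. With every cell thinned to 2000 UMIs the epithelial shares were 0.210%, 0.571% and 2.14%. *Dhrs3* was found in 35.3%, 49.9% and 64.3% of *Epcam*-positive cells and, after thinning, in 7.56%, 3.29% and 13.5%. The deeper cells of the Tbx1 neo2/neo2-labelled library thus had more *Dhrs3*-containing cells than control at a lower CPM, and the order turned once depth was made equal. *Cyp26b1* kept its order, with 10.6%, 26.1% and 4.04% before and 2.15%, 3.43% and 0.330% after thinning.

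The epithelium also differed in composition. A list of 3 parathyroid markers summed to 908, 0.394 and 6050 CPM in *Epcam*-positive cells, with *Pth* at 660 CPM in control and 4579 CPM in Foxn11089/1089, and *Gcm2* at 0 in the Tbx1 neo2/neo2-labelled library. A list of 4 thyroid markers summed to 2.40, 206 and 3.76 CPM, led by *Nkx2-1* at 84.2 CPM in that library. A list of 4 airway and lung markers, which shares *Nkx2-1*, summed to 37.9, 199.8 and 86.0 CPM, with *Sox2* at 0.799, 25.5 and 2.12 CPM and *Trp63* the most abundant, and 0, 32 and 0 cells held 3 of them. A list of 4 cortical markers summed to 1222, 1184 and 268 CPM, led by *Ccl25* in the first 2 libraries and by *Foxn1* in Foxn11089/1089. *Krt5* and *Krt17*, keratins of medullary-type epithelium, summed to 1058, 1125 and 271 CPM. The 5 hemoglobin-related genes summed to 1531, 831 and 12605 CPM. A list of 4 skeletal muscle markers summed to 0.860, 12.1 and 8.95 CPM, and 0, 2 and 13 cells held 3 of them. A list of 4 neural crest glia markers summed to 3.35, 9.26 and 9.09 CPM. The part of these differences in the ratios above was tested only by splitting the cells, as follows.

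Parathyroid-marker cells, with at least 2 UMIs of each of at least 2 markers, numbered 25, 0 and 375 and carried the highest *Aldh1a3* levels, at 128 CPM in control and 77.3 CPM in Foxn11089/1089. They and the 3, 88 and 6 thyroid-marker cells were set apart, while cells with airway, skeletal muscle or neural crest glia markers were not. In the 612, 306 and 735 remaining cells with at least 2 UMIs of *Krt5* and *Krt17* together, *Aldh1a3* was at 9.32, 3.4 and 23.2 CPM, or 0.365-fold (0.257 to 0.515) and 2.49-fold (1.98 to 3.14) the control. In the 1281, 314 and 2576 cells with fewer the folds were 0.193 (0.109 to 0.320) and 2.61 (2.18 to 3.14). With both marker groups left out, its log2 ratios over all other *Epcam*-positive cells were -1.60 and 1.33.

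*Rarb* was higher than in control in both epithelial groups, and the difference between groups was not tested. Cells with at least 2 UMIs of *Krt5* and *Krt17* together had 1.30, 5.32 and 10.1 CPM, or 4.08-fold (2.27 to 7.98) and 7.76-fold (4.43 to 14.8) the control. Cells with fewer had 0.900, 6.99 and 11.1 CPM, or 7.77-fold (4.77 to 13.3) and 12.3-fold (7.88 to 20.3). *Cyp26b1* was 2.14-fold (1.68 to 2.74) and 0.390-fold (0.279 to 0.542) the control in the first group, and 1.65-fold (1.33 to 2.04) and 0.297-fold (0.234 to 0.375) in the second. *Crabp2* was at 18.7 CPM in thyroid-marker cells of the Tbx1 neo2/neo2-labelled library, against 363 and 346 CPM in its other 2 epithelial groups.

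Endothelial and hematopoietic cells gave few UMIs of most members. *Cyp26b1* in *Cdh5*-positive cells of the Tbx1 neo2/neo2-labelled library gave 73 UMIs against 0 in control, a fold with a lower limit of 6.34. Markers of other cells differed from control in both directions there. In *Cdh5*-positive cells 6 smooth muscle markers, led by *Myl9*, summed to 15.8, 107 and 36.4 CPM, and *Stmn2* stood at 30.3, 602 and 51.9 CPM. The 5 hemoglobin-related genes summed to 18498, 2234 and 8103 CPM, and cartilage markers to 9.23, 1.73 and 2.0 CPM. *Stmn2* is listed as neuronal but was at 1228, 608 and 993 CPM in *Epcam*-positive and 463, 179 and 391 CPM in *Pdgfra*-positive cells. The part of other cells in the *Cyp26b1* level was not tested. In *Ptprc*-positive cells *Dhrs3* was 5.57-fold (3.81 to 8.36) and 5.31-fold (3.58 to 8.05) the control, or 2.13 and 2.21 on the log2 scale above the median gene. It was found in 4.98%, 26.2% and 18.9% of cells, against 0%, 1.52% and 1.66% of *Alas2*-positive cells. Also past 2-fold there were *Crabp1*, at 2.06-fold (1.01 to 4.40) and 2.23-fold (1.05 to 4.87), and *Crabp2* in Foxn11089/1089, at 3.62-fold (2.17 to 6.23), on 13 and 22 control UMIs. Relative to the median gene *Crabp1* lay at 0.69 and 0.96 on the log2 scale, under 2-fold, and *Crabp2* at 1.66. *Crabp1* stood at 1.22, 2.50 and 2.71 CPM, against 1.26, 2.48 and 3.99 CPM in *Alas2*-positive cells. *Crabp2* stood at 2.06, 2.19 and 7.45 CPM, against 3.78, 6.05 and 6.57 CPM. In CPM both lay near these background levels, so these ratios are not read as expression. Stray UMIs need not scale with depth, and *Ptprc*-positive cells were deeper than *Alas2*-positive cells. CPM alone therefore cannot place these levels against background. In *Cdh5*-positive cells of the Tbx1 neo2/neo2-labelled library *Crabp2* was 3.29-fold (1.02 to 16.8) the control, on 3 control UMIs. No share of all genes past 2-fold is given for *Cdh5*- and *Ptprc*-positive cells. How common such ratios are in these classes therefore cannot be read. The median depth of *Ptprc*-positive cells was 20156, 53230 and 26844 UMIs. The paper lists different shares of its hematopoietic clusters across these genotypes. The part of such a mix in the *Dhrs3* ratios of *Ptprc*-positive cells was not tested.

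The 44 other pathway genes gave the same comparison on a wider list. In *Pdgfra*-positive cells of the Tbx1 neo2/neo2-labelled library, 8 of 37 with enough UMIs were higher (against 17.5% of all genes) and 2 lower (against 3.52%), with a median log2 ratio of 0.58 against 0.38 over all genes. The gene furthest above control was *Hoxa5*, from 6.51 to 82.2 CPM, 12.6-fold (9.34 to 17.5), followed by *Hoxa4* at 4.73-fold and the transglutaminase *Tgm2* at 4.02-fold. *Adh1*, *Hoxb5*, *Ncoa2*, *Hoxb4* and *Tshz1* lay between 2.15- and 2.87-fold. *Nr2f2* was lower, from 441 to 129 CPM (0.293-fold, 0.279 to 0.307), as was the coactivator *Ncoa3* (0.459-fold).

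The same mesenchymal gate held 1144 CPM of smooth muscle markers in that library, against 497 CPM in control and 505 CPM in Foxn11089/1089, with *Acta2* the most abundant at 339 CPM. Markers of cartilage, led by *Sox9*, summed to 36.8, 136 and 42.5 CPM there, with *Col2a1* at 0.757, 31.4 and 0.893 CPM. Neural crest glia markers summed to 2.27, 10.3 and 3.79 CPM. With cells holding UMIs of at least 4 of the 6 smooth muscle markers left out, an alternative chosen after seeing the data, the log2 ratio of *Aldh1a3* in that library was 1.94 and that of *Stra6* 1.51, against 1.61 and 1.37 with them. The part of cartilage and glia in these ratios, and of any such cells in the *Hox* differences, was not tested. In Foxn11089/1089 mesenchyme 1 of 34 pathway genes was higher (*Nrip1*, a corepressor, 2.25-fold), against 6.25% of all genes, and 3 were lower, against 4.14%. These were *Nr2f2* (0.442-fold), *Ncoa3* (0.458-fold) and *Cyp2s1* (0.457-fold), and the median log2 ratio was 0.23 against 0.17.

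In *Epcam*-positive cells of the Tbx1 neo2/neo2-labelled library, 9 of 32 pathway genes were higher (against 16.6% of all genes) and 0 lower (against 4.42%). *Nr2f2* was 5.25-fold (4.67 to 5.92) higher there, against 0.293-fold in mesenchyme. *Hoxa5* was 13.05-fold (4.83 to 49.5) and *Tgm2* 45.5-fold (15.3 to 223) higher, on 4 and 3 control UMIs. The epithelial *Hoxa5* level was 1.89% of the mesenchymal level in control and 1.95% in that library, inside the ranges of the 4 mesenchymal genes above, and the part of carry-over in this difference was not tested. *Tgm2*, at 32.8%, and *Hoxb4*, at 10.9%, lay above the range in that library. *Hoxb4* (4.75-fold), *Cyp2s1* (4.58-fold), *Nr2f1*, *Tshz1*, *Rbp4* and *Ncoa2* made up the rest, and the median log2 ratio was 0.65 against 0.40.

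In Foxn11089/1089 epithelium 12 of 37 were higher (against 16.1% of all genes) and 1 lower (against 8.07%), with a median log2 ratio of 0.66 against 0.25. Of 15 responders 8 were higher: *Tgm2*, *Hoxb1*, *Hoxb3*, *Hoxa4*, *Hoxb4*, *Hoxa5*, *Hoxb5* and *Tshz1*. *Hoxb4* was 5.64-fold (4.04 to 8.10), *Hoxb3* 5.10-fold (4.22 to 6.21) and *Hoxa4* 3.85-fold (3.05 to 4.91) the control. *Hoxb1*, at 14.4-fold (2.43 to 585), had 1 control UMI. The epithelial levels of *Hoxb4*, *Hoxb3* and *Hoxa4* were 26.8%, 53.5% and 49.4% of the mesenchymal ones, above the range of the 4 mesenchymal genes, and that of *Hoxa5* was 4.31%, just above it. *Rarres2* (3.75-fold, at 1.14% of its mesenchymal level, below that range), *Nrip1* and *Ncoa2* were also higher, and *Ncoa3* (0.496-fold) was the lower gene.

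Fibroblasts were split within *Pdgfra*-positive cells. *Aldh1a2*-positive cells held at least 2 *Aldh1a2* UMIs, and *Sfrp2*-high cells were at or above 1173 CPM of *Sfrp2*, the 75th percentile of control. *Kcnj8*/*Abcc9*-positive cells held at least 2 UMIs of that pair, whose products form a potassium channel. *Aldh1a2*-positive cells made up 18.3% (15.4 to 21.4), 27.4% (24.9 to 29.96) and 32.7% (30.7 to 34.8) of *Pdgfra*-positive cells, *Sfrp2*-high cells 25.0%, 31.5% and 17.3%, and *Kcnj8*/*Abcc9*-positive cells 44.5%, 43.2% and 44.3%. With cells thinned to 5000 UMIs and the gate set at 1 UMI the first share was 19.1%, 13.8% and 27.8%, and the parts of depth and gate in this change were not separated. Just inside the *Aldh1a2* gate, at 2 UMIs, were 49, 75 and 166 cells, and just outside it, at 1 UMI, 104, 128 and 339.

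Few cells met both definitions. Cells that were *Sfrp2*-high and *Aldh1a2*-positive numbered 11, 49 and 34, or 1.69%, 4.03% and 1.65% of *Pdgfra*-positive cells, and were left out of the contrast. By comparison 78.2%, 64.6% and 61.7% of *Aldh1a2*-positive cells were also *Kcnj8*/*Abcc9*-positive. In *Aldh1a2*-positive cells the level of *Aldh1a2*, which the gate fixes, was 286, 209 and 289 CPM, against 9.98, 4.18 and 12.9 CPM in *Sfrp2*-high cells.

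*Crabp2* and *Dhrs3* were lower in *Aldh1a2*-positive than in *Sfrp2*-high cells, and *Stra6* was higher. The contrast compared 108, 284 and 642 *Aldh1a2*-positive with 152, 334 and 324 *Sfrp2*-high cells, summed per library, over 11992 genes, of which 1221 were higher and 1105 lower by edgeR. Of the 8 genes tested 2 were higher, against 10.2% of all genes, 1 of them the gate gene itself, and 2 were lower, against 9.21%.

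*Crabp2* was at 17.0, 59.3 and 40.6 CPM in *Aldh1a2*-positive and 110, 111 and 112 CPM in *Sfrp2*-high cells. The log2 fold change was -1.36 ± 0.213 (adjusted p = 0.00407, edgeR, lower in 3 of 3 libraries). *Dhrs3* was at 11.8, 19.9 and 12.2 against 43.0, 31.9 and 16.7 CPM, with ranges that overlap between libraries but the same order within each (log2 fold change -0.76 ± 0.212, adjusted p = 0.0391, edgeR; lower in 3 of 3). *Stra6* was at 2.22, 5.04 and 17.1 against 1.53, 2.03 and 0.477 CPM, from 3, 46 and 210 against 2, 18 and 2 UMIs. It was higher by 2.47 ± 0.606 on the log2 scale (adjusted p = 0.0245, edgeR; 3 of 3 libraries), and most of its UMIs came from the Foxn11089/1089 library.

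Some calls changed when a library was left out. Without Foxn11089/1089, 130 genes were higher and 148 lower, and *Crabp2* (log2 fold change -1.39, adjusted p = 0.111), *Dhrs3* (-0.98, adjusted p = 0.136) and *Stra6* (1.21, adjusted p = 0.247) were no longer called. Without control, *Dhrs3* (-0.55, adjusted p = 0.0909) and *Stra6* (2.61, adjusted p = 0.0693) were not called, and 635 genes were higher and 653 lower. Over all alternatives the adjusted p ranged from 7.9e-22 to 0.111 for *Crabp2*, from 0.000454 to 0.253 for *Dhrs3* and from 2.0e-10 to 0.310 for *Stra6*. *Crabp2* was called in 11 of 13, *Dhrs3* in 6 of 13 and *Stra6* in 5 of 10, with log2 fold changes from -1.98 to -1.0, from -1.79 to -0.48 and from 0.86 to 2.81.

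*Crabp1* did not pass (log2 fold change -1.09, adjusted p = 0.102, edgeR). It was at 54.7, 278 and 99.3 CPM in *Aldh1a2*-positive cells and 334, 225 and 305 CPM in *Sfrp2*-high cells, so the Tbx1 neo2/neo2-labelled library had the opposite order. Without that library it was called at -1.88 (adjusted p = 3.3e-08; range over its alternatives 1.3e-14 to 0.517). *Cyp26b1* was lower in 3 of 3 libraries but did not pass (-0.97, adjusted p = 0.139), except, among the left-out libraries, without the Tbx1 neo2/neo2-labelled library (adjusted p = 0.0285; range 0.000815 to 0.552). *Rarb* (0.18, adjusted p = 0.564) and *Aldh1a3* (1.41, adjusted p = 0.127) were each higher in 2 of 3 libraries and did not pass.

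The *Kcnj8*/*Abcc9* gate does not count *Aldh1a2* UMIs. It was, however, chosen with earlier results of these data known, and most *Aldh1a2*-positive cells lie in it. The *Aldh1a2* difference given here is thus a description and not independent support. *Aldh1a2* was at 127, 152 and 186 CPM in *Kcnj8*/*Abcc9*-positive cells (255, 303 and 760 cells) and 37.2, 48.5 and 31.7 CPM in *Sfrp2*-high cells (128, 160 and 203 cells). Cells that met both gates, 35, 223 and 155 of the 163, 383 and 358 *Sfrp2*-high cells, were left out of this contrast. It was higher by 2.06 ± 0.162 on the log2 scale (adjusted p = 7.9e-05, edgeR; 3 of 3 libraries). Of 7 genes tested it was the 1 higher, against 15% of 10890 genes, and 4 were lower, against 12.1%.

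*Crabp2* was at 23.9, 39.8 and 42.7 against 117, 140 and 130 CPM (log2 fold change -1.77 ± 0.120, adjusted p = 5.8e-05, edgeR; lower in 3 of 3 libraries). *Crabp1* was at 97.1, 122 and 150 against 296, 359 and 276 CPM (-1.25 ± 0.130, adjusted p = 0.000257, edgeR; lower in 3 of 3). The retinaldehyde reductase *Dhrs3* was at 6.87, 12.3 and 11.3 against 56.7, 45.5 and 20.6 CPM (-1.70 ± 0.289, adjusted p = 0.00270, edgeR; lower in 3 of 3). Each of these 3 genes was called in 13 of 13 alternatives.

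*Cyp26b1* was also lower, at 0.654, 3.08 and 3.11 against 11.2, 6.66 and 12.3 CPM (log2 fold change -1.81 ± 0.394, adjusted p = 0.00902, edgeR; lower in 3 of 3 libraries). It was called in 11 of 13 alternatives (adjusted p from 1.4e-06 to 0.229). *Rarb* (-0.16, adjusted p = 0.515; lower in 2 of 3 libraries) and *Stra6* (1.23, adjusted p = 0.155; higher in 2 of 3 libraries) did not pass by edgeR. In this contrast the cells with more *Aldh1a2* thus had less of these 4 genes, while in the *Aldh1a2* contrast *Crabp1* and *Cyp26b1* had not passed.

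**Figure D4:**
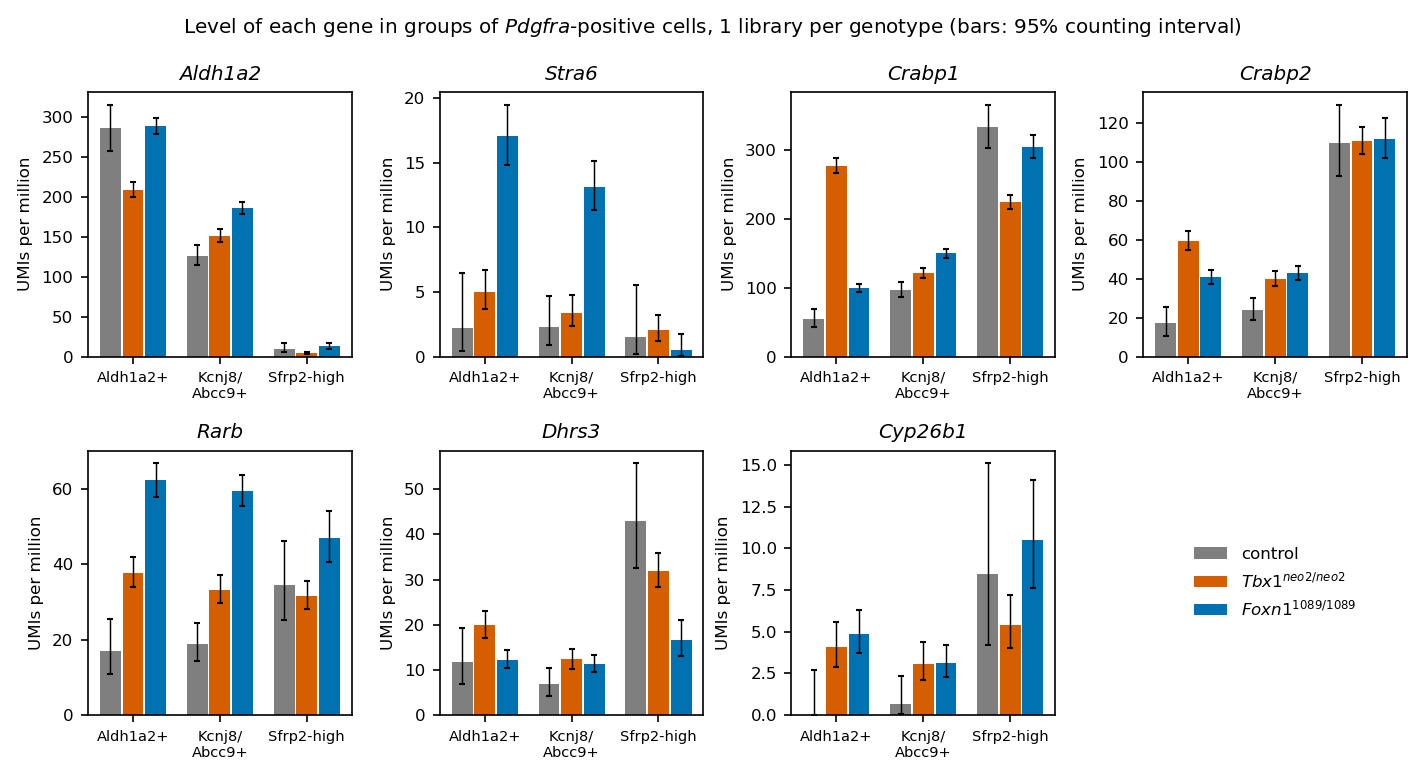
Level in CPM of members in *Aldh1a2*-positive, *Kcnj8*/*Abcc9*-positive and *Sfrp2*-high fibroblasts of each library, with 95% counting intervals. *Crabp2* in *Aldh1a2*-positive cells stays at or below 59.3 CPM and in *Sfrp2*-high cells at or above 110 CPM.

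Of 34 other pathway genes tested between *Aldh1a2*-positive and *Sfrp2*-high cells, 2 were higher (against 10.2% of all genes) and 8 lower (against 9.21%), with a median log2 fold change of -0.16. Of 30 tested in the *Kcnj8*/*Abcc9* contrast, 2 were higher (against 15%) and 9 lower (against 12.1%), with a median of -0.12. *Rdh10*, which oxidises retinol to retinaldehyde, was at 24.4, 32.3 and 25.8 against 50.7, 58.4 and 47.5 CPM in the first contrast (log2 fold change -0.85, adjusted p = 0.00232, edgeR; lower in 3 of 3 libraries). In the second it was lower by -1.40 (adjusted p = 0.000275, edgeR; 3 of 3).

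The receptor *Rarg* was lower by -0.78 (adjusted p = 0.0106, edgeR; 3 of 3 libraries) and -0.80 (0.00177; 3 of 3). *Rarres2* and *Meis2* were lower in both contrasts by between -0.61 and -0.42. *Hoxa4*, *Hoxb4* and *Hoxa5* were lower in the *Kcnj8*/*Abcc9* contrast alone, where the difference between contrasts was not tested, and *Rbp4* and *Plaat3* in the other. *Fabp5* was higher in both (0.42 and 0.64; 3 of 3 libraries each), as was *Nr2f2* (0.38 in 2 of 3 libraries, and 0.65 in 3 of 3).

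Markers of other cell types also differed between these groups. Smooth muscle markers summed to 511, 445 and 451 CPM in *Aldh1a2*-positive cells and 770, 2630 and 903 CPM in *Sfrp2*-high cells, all 6 markers detected, with *Acta2* at 869 CPM in the Tbx1 neo2/neo2-labelled library. A list of 4 cell cycle genes, led by *Cdk1* or *Top2a*, summed to 663, 854 and 1057 CPM in *Aldh1a2*-positive and 210, 407 and 433 CPM in *Sfrp2*-high cells. In the *Kcnj8*/*Abcc9* contrast smooth muscle markers summed to 439, 1053 and 453 against 657, 774 and 600 CPM, higher on the *Sfrp2*-high side in 2 of 3 libraries, and cell cycle genes to 706, 845 and 1065 against 199.9, 277 and 472 CPM. With cells of other-type markers left out, *Crabp1* was called in the *Aldh1a2* contrast (-1.29, adjusted p = 0.0387, edgeR; range over its alternatives 1.3e-14 to 0.517), an alternative chosen after seeing the data. The part of the cell cycle was not tested.

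The genes furthest apart between *Aldh1a2*-positive and *Sfrp2*-high cells, among called genes at 50 CPM or more on average, were *Hbb-y* (log2 fold change 4.22), *Hba-x* (3.49), *Ndufa4l2* (3.37), *Enpp2* (2.71) and *Timp3* (2.54) on the high side by edgeR. On the low side were *Fbln5* (-4.16), *Tagln* (-3.05), *Gm26771* (-2.97), *Smoc2* (-2.74) and *Sdpr* (-2.71). *Hbb-y* and *Hba-x* are embryonic globins, made by red blood cells, and *Fbln5* and *Tagln* are genes of elastic fibres and smooth muscle. In the *Kcnj8*/*Abcc9* contrast the highest were *Ndufa4l2* (4.11), *Hba-x* (3.22), *Tcf21* (2.26), *Hist1h1b* (2.10) and *Timp3* (2.09), and the lowest *Gm26771* (-2.97), *Ogn* (-2.76), *Col9a1* (-2.48), *Smoc2* (-2.36) and *Ackr3* (-2.24).

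Genotype ratios were also taken within fibroblast groups. *Rarb* in *Aldh1a2*-positive cells was at 17.0, 37.8 and 62.3 CPM, or 2.22-fold (1.46 to 3.55) and 3.66-fold (2.42 to 5.81) the control. In *Sfrp2*-high cells it was 34.5, 31.7 and 47.0 CPM, or 0.918-fold (0.669 to 1.29) and 1.36-fold (0.980 to 1.93), intervals that hold 1. Cells of neither group were at 1.30-fold (1.06 to 1.62) and 1.87-fold (1.53 to 2.31). In *Kcnj8*/*Abcc9*-positive cells it was 1.75-fold (1.32 to 2.36) and 3.14-fold (2.40 to 4.17) the control, and in the *Sfrp2*-high cells of that contrast 1.14-fold (0.796 to 1.67) and 1.46-fold (1.02 to 2.15). The difference between groups was not tested.

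*Crabp2* was 3.49-fold (2.30 to 5.55) and 2.39-fold (1.57 to 3.80) the control in *Aldh1a2*-positive cells, on 23 control UMIs, and 1.01-fold and 1.02-fold in *Sfrp2*-high cells. *Crabp1* was 5.08-fold (4.03 to 6.49) and 1.82-fold (1.43 to 2.33) the control in the first group and 0.673-fold (0.606 to 0.748) and 0.913-fold (0.818 to 1.02) in the second. *Dhrs3* in *Sfrp2*-high cells was 0.743-fold (0.556 to 1.01) and 0.388-fold (0.269 to 0.562). *Stra6* in *Aldh1a2*-positive cells of Foxn11089/1089 was 7.69-fold (2.59 to 37.6) the control, which had 3 UMIs. The higher *Aldh1a3* of the Tbx1 neo2/neo2-labelled library came mostly from cells of neither group, at 7.46-fold (2.83 to 27.9) on 4 control UMIs.

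Patterns across classes were compared by Pearson r of log2(CPM + 1) over 15 levels, 5 classes in each of 3 libraries, among 13268 genes with at least 300 UMIs. The levels share libraries and depth, and r is given as a description. Most like *Aldh1a2* were *Prrx1* (r = 0.994), *Tmem26* (0.990) and *Mab21l2* (0.987), and most like *Crabp1* were *Ntrk2* (0.991), *Col6a3* (0.990) and *Ddr2* (0.989). *Crabp2* ran closest to *Ank3* (0.982), *Bmp7* (0.978) and *Cnksr2* (0.977), and *Rarb* to *Aebp1* (0.967), *Shd* (0.965) and *Sfrp1* (0.963). *Prrx1*, *Col6a3*, *Ddr2* and *Aebp1* are genes of mesenchyme and its matrix.

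For *Dhrs3* the nearest genes were *Bmp2* (0.969), *Tmem37* (0.965) and *Zfp36l1* (0.955), and for *Stra6* they were *Pnmal2* (0.963), *Nap1l2* (0.958) and *Ptprd* (0.957). For *Cyp26b1* they were *Emp2* (0.960), *Echdc3* (0.954) and *Gm15222* (0.936), and for *Aldh1a3* they were *Gm5860* (0.944), *Cpz* (0.935) and *Galnt14* (0.934). *Aldh1a1* had too few UMIs to be ranked.

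*Rarb* was called higher in the epithelium of both mutant libraries, and its promoter is a textbook site of retinoic acid receptor binding, so its sequence is shown. RefSeq promoter windows of 300 bases (GRCm38.p6) were available for 7 of the 9 genes, in 13 windows. They were searched on both strands for 2 half-sites, each reading AGGTCA with A or G at base 1 and G or T at base 3, in the same direction and spaced by 5 bases. Of 32851 windows, 32 (0.0974%) held such a repeat, and *Rarb* was the 1 member among them. With a spacing of 2 bases 88 windows (0.268%) held one and 0 of the members did. In the 100 bases printed, chr14:16575477-16575576 on the minus strand, the capitals mark the repeat of 17 bases, which starts 53 bases before the start of transcription.
Rarb: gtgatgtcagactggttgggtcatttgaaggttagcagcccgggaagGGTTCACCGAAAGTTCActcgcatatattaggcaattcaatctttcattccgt
A match of letters is a description and not a site shown to be used in these cells.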

How the data were processed

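Droplet single-cell RNA sequencing of thymic lobes was taken from 3 libraries, 1 per genotype. The authors used Cell Ranger 3.0.0 with the mm10 genome to align reads and count UMIs; the deposited values are raw counts per gene and cell barcode, without normalization, beside lists of gene identifiers and of cell barcodes (other, not measured values). The submitters' processing notes also name Seurat, whose clusters were not used.

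The members and lists were chosen with earlier results of these data known. UMIs were summed per class and library with Python 3.11.15 (numpy 2.4.6, pandas 2.3.3, scipy 1.17.1, matplotlib 3.10.9). Levels were given exact Poisson intervals, shares Clopper-Pearson intervals and ratios conditional binomial intervals. A count of 0 was read as at most 3. Tests between classes or fibroblast groups used edgeR 4.0.16 (filterByExpr, TMM, quasi-likelihood F-test, library as a term, FDR 0.05) in R 4.3.3, checked on simulated data. Genes called by name were all 9 members, some of the listed pathway genes past the threshold, the 3 most alike genes per member, and the 5 highest and 5 lowest genes per fibroblast contrast.

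Alternatives were DESeq2 1.42.0, no library term, no TMM, no count filter, each library left out, other gates (1 or 3 UMIs, marker lists, *Sfrp2* percentiles 50 and 90), mitochondrial share under 10%, cells of 2000 UMIs or more, thinning, median-of-ratios size factors, no deepest 5% of cells, and a minimum of 100 UMIs. Leaving out cells with other-type markers was added after seeing the data.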

Additional observations from a re-analysis of the deposited data

Results flagged for a closer look

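*Aldh1a3* moved in opposite directions in 2 cell classes of the same library. In *Pdgfra*-positive cells of the Tbx1 neo2/neo2-labelled library its log2 ratio over control was 1.61, and in *Epcam*-positive cells it was -1.86. The first rests on 10 control UMIs and the second on 272. There is 1 library per genotype, so the difference between the classes was not tested.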

How the results depend on the processing

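Of 494 log2 fold changes of members under an alternative, 451 kept their direction and side of the threshold, 14 passed newly, 21 no longer passed and 8 changed sign. Of 326 log2 ratios 278 stayed within their counting interval, as did 19 of 108 shares of cells; 101 of 130 gene counts and 69 of 80 member counts stayed within 1.5 times their value. Depth limits *Aldh1a1*, *Stra6* and, in control mesenchyme, *Aldh1a3* and *Cyp26b1*, which had few UMIs there, and the 47 to 80 *Cdh5*-positive cells.

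Members at least 2-fold from control changed in number as follows. In *Pdgfra*-positive cells of the Tbx1 neo2/neo2-labelled library, 1 was higher with a gate of 3 UMIs, 4 with marker lists and 0 thinned to 2000 UMIs. In Foxn11089/1089, 1 was higher with a gate of 1 UMI, with marker lists, without the top 5% of cells and with median-of-ratios size factors. In *Epcam*-positive cells of the Tbx1 neo2/neo2-labelled library, 5 were higher with a gate of 1 UMI and 0 when thinned, and 2 were lower when thinned or with median-of-ratios size factors. Thinning leaves fewer members with 30 UMIs. For the rest the cause was not tested.

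Without a library term, genes higher and lower numbered 2156 and 1982 in *Pdgfra*- against *Epcam*-positive cells, 114 and 132 in *Aldh1a2*-positive and 201 and 210 in *Kcnj8*/*Abcc9*-positive against *Sfrp2*-high fibroblasts, with 1572 lower against *Cdh5*-positive cells. In the *Aldh1a2* contrast they numbered 1981 and 1680 with *Sfrp2*-high from the 50th percentile, 804 and 675 thinned to 5000 UMIs and 763 and 656 by DESeq2, with 1845 higher without a filter. In the *Kcnj8*/*Abcc9* contrast they numbered 799 and 655 from the 90th percentile, 768 and 702 thinned and 999 and 777 by DESeq2. The cause was not tested.

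With each library left out, which leaves fewer sums, genes higher ranged from 1973 to 2957 and lower from 1878 to 2980 against *Epcam*-positive cells. Against *Cdh5*-positive cells they ranged from 1520 to 2039 and from 1524 to 1725, and in the *Aldh1a2* contrast from 130 to 1366 and from 148 to 1178.

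Fold changes that changed sign were not past the threshold on either side. *Dhrs3* against *Cdh5*-positive cells was 0.0073 with a gate of 1 UMI and ranged from -0.39 to 0.11 over the left-out libraries. Over these *Cyp26b1* ranged from -1.06 to 0.30 against *Epcam*-positive and from -1.56 to 1.08 against *Cdh5*-positive cells. *Rarb* ranged from -0.070 to 0.37 over them in the *Aldh1a2* contrast, and was 0.24 in the *Kcnj8*/*Abcc9* contrast when thinned. *Stra6* there ranged from -0.12 to 1.33 over the left-out libraries that gave a fold change, and reached 1.45 without a library term. The cause was not tested. In some alternatives *Stra6*, *Aldh1a3* and *Cyp26b1* gave no fold change, and some members no ratio, for lack of UMIs.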

Other observations

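*Cyp26b1* in *Cdh5*-positive cells of the Tbx1 neo2/neo2-labelled library was found in 31.3% of 80 cells, against 12.9% of 70 cells in Foxn11089/1089 and 0 of 47 in control. With each cell thinned to 2000 UMIs the shares in the mutant libraries were 9.21% and 2.90%. Its level there, 31.6 CPM, was 8.80-fold (4.39 to 20.01) that in Foxn11089/1089.

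In cells that met no gate, the members had a place of their own in the totals. *Aldh1a3* stood at 1.99, 2.57 and 16.0 CPM in them, and *Rarb* at 8.50, 19.4 and 25.7 CPM, in control, the Tbx1 neo2/neo2-labelled library and Foxn11089/1089. *Crabp2* stood at 56.5, 88.4 and 137 CPM. Other cell types differed there too: parathyroid markers summed to 119.5, 7.19 and 5736 CPM, smooth muscle markers to 220, 1418 and 355 CPM and skeletal muscle markers to 28.7, 380 and 75.8 CPM, and the median depth was 10313, 1861 and 7944 UMIs. Their part in the levels was not tested. These cells were 41.6%, 54.6% and 33.5% of the kept cells of the 3 libraries.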
